A study of Mus musculus with 9 samples.

Results

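The 10 genes described here were grouped as markers of activated fibroblasts in fibrotic tissue: Cthrc1, Fap, Adam12, Adam19, Pdpn, Thy1, S100a4, Cdh2, Cdh11, and Tnfrsf12a. The grouping was made with earlier results of these data known, so it is not independent of them. They were taken by gene symbol from a table of 43346 genes, and all 10 were found and tested. Expression was measured by bulk RNA-Seq in lung fibroblasts sorted from aged Col1a1-GFP mice (18 months in the treatment protocol, 72 weeks in the sample annotation), a strain with a GFP reporter of Col1a1. Mice had received either saline (aged sham, n = 4) or bleomycin (aged bleo, n = 5) into the airways, 1 dose, 30 days before the cells were collected. All 9 libraries come from GFP+, CD45-, CD31-, EpCAM- cells, so fibroblasts with little Col1a1 reporter are outside the measurement, and the Col1a1 reporter that set the gate belongs to the program under study. The labels do not say that each library is a separate mouse beyond the group sizes of 4 and 5, and the p-values measure the spread between these libraries.

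Bleomycin is a DNA-damaging drug that injures the alveolar epithelium, and fibroblasts respond by proliferating, contracting, and depositing collagen. Single-cell studies of injured lung describe a collagen-rich fibroblast population named after Cthrc1, a secreted glycoprotein. The other 9 genes encode proteins used to stain, sort, or target fibroblasts. They include the membrane proteases Fap, Adam12, and Adam19, the surface glycoproteins Pdpn (podoplanin) and Thy1 (CD90), the adhesion molecules Cdh2 (N-cadherin) and Cdh11 (cadherin-11), the TWEAK receptor Tnfrsf12a (Fn14), and the calcium-binding protein S100a4, also called fibroblast-specific protein although leukocytes express it as well.

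Total counts ranged from 49921946 to 62370512 in aged sham and from 53833507 to 68260600 in aged bleo. The lowest count of any of the 10 genes in any library was 87, so counting error was small beside the spread between libraries. The first principal component held 61.4% of the variance and separated the groups, with aged bleo 2 nearest to aged sham and aged bleo 4 farthest from it. The 8 fibroblast identity genes (Col1a2, Pdgfra, Pdgfrb, Dcn, Lum, Tcf21, Fbln1, and Mfap5) summed to 17563 to 19752 CPM (counts scaled to library size, normalized by TMM) in aged sham and 20529 to 24331 CPM in aged bleo, with 2 of them called higher, 3 lower, and 3 not called by the test described next. Col1a2 rose within this list (mean 5463 to 16472 CPM) and made up most of the aged bleo sum, at 12764 to 19117 CPM. The higher sum in aged bleo therefore does not stand for the other genes of the list. Dcn fell (8122 to 2795 CPM), as did Tcf21 and Fbln1. The genes of the proteins used to exclude cells were low for Epcam (0.593 and 0.668 CPM in aged sham and aged bleo) and Pecam1, which encodes CD31 (6.12 and 4.34 CPM), whereas Ptprc, which encodes CD45, stood at 87.0 and 65.0 CPM. Ptprc was 183 CPM in aged bleo 4 and 30.6 to 43.6 CPM in the other 4 aged bleo libraries, against 42.3 to 169 CPM in aged sham.

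Of the 10 markers, 5 rose after bleomycin (Cthrc1, Adam12, Cdh11, Adam19, and S100a4), 1 fell (Fap), and 4 did not pass the test (Pdpn, Thy1, Cdh2, and Tnfrsf12a). A gene passed with a false discovery rate (FDR, the Benjamini-Hochberg adjusted p of edgeR's quasi-likelihood test over all 16877 genes tested) under 0.10 and a fold change over 1.5. Over all genes tested, 12.3% were called higher, 11.5% lower, and 23.8% in either direction. Of the 5 markers that rose, 4 had no overlap between the libraries of the groups (all but S100a4), and Fap overlapped. The groups also failed to overlap for 32.2% of the tested genes, 16.1% in each direction. The median log2 fold change was 0.76 for the 10 markers and 0.01 for all genes tested. In bulk samples, more cells of a type and more RNA per cell cannot be told apart.

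**Figure D1:**
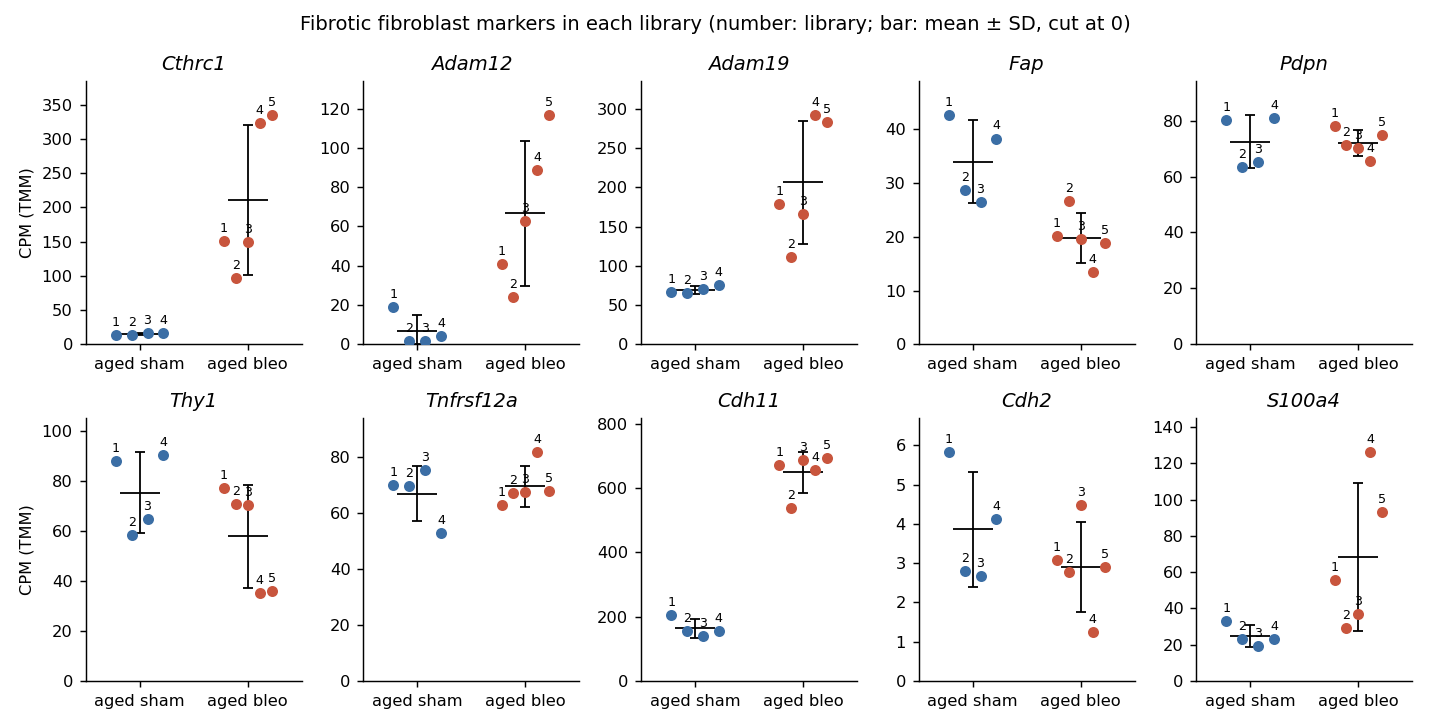
Expression of each marker in CPM (linear axis from 0) in the 4 aged sham (blue) and 5 aged bleo (red) libraries, numbered as in the text, with bars for the mean ± SD. Cthrc1, Adam12, Adam19, and Cdh11 do not overlap between the groups, while the Pdpn and Tnfrsf12a points of the groups overlap.

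Cthrc1 lies on chromosome 15 (39076932 to 39087121, plus strand; all gene positions are on GRCm38 as deposited). Its level in aged sham was 13.7, 13.2, 16.4, and 15.7 CPM in libraries 1 to 4. In aged bleo it was 151, 97.3, 150, 324, and 335 CPM in libraries 1 to 5. The groups were far apart: the lowest aged bleo library, number 2, was well above every aged sham library, and libraries 4 and 5 were higher than the other 3 by more than the whole aged sham range. The log2 fold change was 3.84 (SE 0.40, 95% interval 2.94 to 4.74, FDR 2.24e-04), a 14.3-fold difference that ranked number 122 of the 16877 genes by fold change.

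Among the membrane proteases, Adam12 and Adam19 rose and Fap fell. Adam12 (chromosome 7, 133883199 to 134232146, minus strand) encodes a disintegrin and metalloprotease of developing and regenerating tissue. Its level in aged sham was 19.0 CPM in library 1, but 1.85, 1.69, and 4.07 CPM in libraries 2 to 4. In aged bleo, Adam12 stood at 40.9, 24.2, 62.7, 88.8, and 117 CPM. The groups did not overlap, although aged sham 1 came close to aged bleo 2. Its log2 fold change was 3.31 (SE 0.82, 95% interval 1.47 to 5.16, FDR 0.0144), and it was 4.72 without aged sham 1. Adam12 had the widest interval of the 10 markers.

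Adam19 (chromosome 11, 46055992 to 46147343, plus strand), a related metalloprotease, was nearly constant in aged sham at 67.0, 64.8, 70.0, and 75.8 CPM. It reached 179, 111, 165, 292, and 284 CPM in aged bleo, with no overlap between the groups. As for Cthrc1, libraries 4 and 5 were the highest and library 2 the lowest. Adam19 had a log2 fold change of 1.57 (SE 0.27, FDR 0.00292), or 2.97-fold. Exons of Adam19 overlap the antisense genes Gm16033 and Gm16034 on the other strand, and the strand setting of the counting is not stated. The counts of these 2 antisense genes together came to between 17.8% and 19.9% of the Adam19 count in every library of both groups.

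Fap (chromosome 2, 62500943 to 62574075, minus strand) encodes fibroblast activation protein, a serine protease of the S9 family and a common target for imaging of fibrosis. It was 42.6, 28.8, 26.4, and 38.3 CPM in aged sham. In aged bleo it was 20.1, 26.6, 19.5, 13.5, and 18.9 CPM. Of the 5 aged bleo libraries, 4 were below every aged sham library, and aged bleo 2 was level with aged sham 3. Fap had a log2 fold change of -0.79 (SE 0.20, 95% interval -1.24 to -0.34, FDR 0.0158), a 1.73-fold decrease, against the direction of Cthrc1 and both ADAM genes. Fap missed the fold change threshold of 1.5 when tested as log2(FPKM + 1), where its log2 difference was -0.49 with an FDR of 0.0160.

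**Figure D2:**
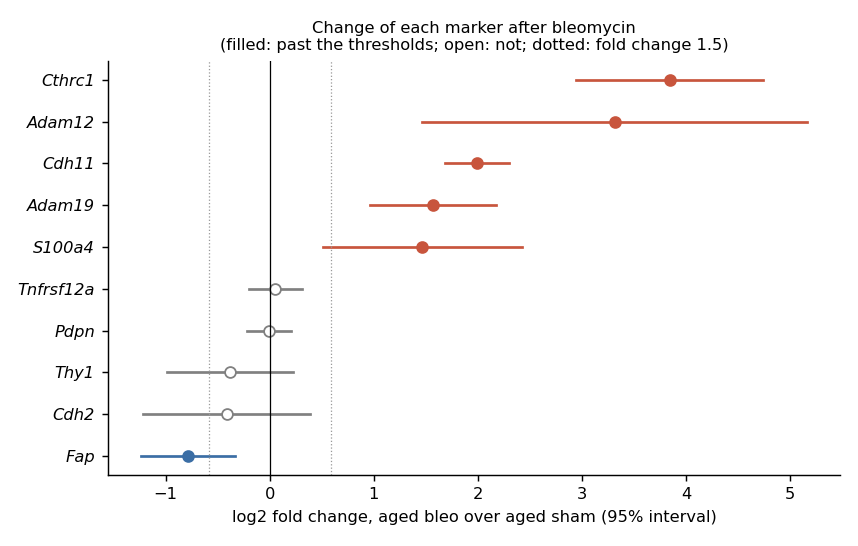
Log2 fold change of each marker, aged bleo over aged sham, with the 95% interval of the edgeR fit; filled points passed the thresholds and the dotted lines mark a fold change of 1.5. Cthrc1 is at 3.84, Fap at -0.79, and the narrow intervals of Pdpn and Tnfrsf12a lie within the dotted lines.

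The surface glycoproteins did not pass the test. Pdpn (chromosome 4, 143267431 to 143299564, minus strand), a mucin-like protein of activated fibroblasts, alveolar type 1 (AT1) cells, and lymphatic endothelium, was 80.3, 63.5, 65.2, and 80.9 CPM in aged sham. It was 78.2, 71.4, 70.4, 65.7, and 74.9 CPM in aged bleo, so every aged bleo library lay inside the range of aged sham. Pdpn had a log2 fold change of -0.01 with a 95% interval of -0.22 to 0.20 (FDR 0.961). Both ends of this interval are under a fold change of 1.5.

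Thy1 (chromosome 9, 44043384 to 44048579, plus strand), a GPI-anchored protein that binds integrins, had another pattern. It was 88.0, 58.3, 64.7, and 90.4 CPM in aged sham, and 77.1, 70.8, and 70.4 CPM in aged bleo 1 to 3. Libraries 4 and 5 of aged bleo, the highest ones for Cthrc1, were below every aged sham library with 35.0 and 36.1 CPM. Thy1 had a log2 fold change of -0.38 (SE 0.27, 95% interval -0.99 to 0.23, FDR 0.302), and a decrease of 1.5-fold or more is within that interval.

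The cadherins differed from each other. Cdh11 (chromosome 8, 102632995 to 102785111, minus strand), a mesenchymal cadherin that joins fibroblasts to each other, was 205, 154, 139, and 156 CPM in aged sham. In aged bleo, Cdh11 was 671, 539, 687, 656, and 693 CPM. The aged bleo libraries other than number 2 were within a narrow band, and the groups did not overlap. The log2 fold change of 1.99 (SE 0.14, 95% interval 1.68 to 2.30) had the lowest FDR of the 10 markers, 2.68e-05, and amounted to 3.97-fold. Cdh2 (chromosome 18, 16588877 to 16809246, minus strand), the cadherin of neural and mesenchymal tissue, was low in all libraries. Its level was 5.83, 2.81, 2.67, and 4.13 CPM in aged sham and 3.07, 2.77, 4.48, 1.26, and 2.91 CPM in aged bleo. The groups overlapped, and the 95% interval of the log2 fold change (-0.42, from -1.21 to 0.38, FDR 0.391) included 0.

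Tnfrsf12a (chromosome 17, 23675447 to 23677449, minus strand), the receptor for the cytokine TWEAK and an early response gene of growth factors, did not pass the test. It was 70.0, 69.9, 75.4, and 52.8 CPM in aged sham, and 62.9, 67.3, 67.6, 81.9, and 68.1 CPM in aged bleo. Aged bleo 4 was the highest of all 9 libraries and aged sham 4 the lowest, while the other 7 lay close together. The log2 fold change was 0.05 (95% interval -0.20 to 0.31, FDR 0.744), an interval that again lies under a 1.5-fold change on both sides.

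S100a4 (chromosome 3, 90603770 to 90606045, plus strand) rose, but with overlap between the groups. In aged sham it was 33.2, 23.4, 19.2, and 23.0 CPM. In aged bleo it was 55.4, 28.9, 36.9, 126, and 93.3 CPM, with libraries 4 and 5 highest, and library 2 below aged sham 1. The log2 fold change was 1.46 (SE 0.42, 95% interval 0.51 to 2.42, FDR 0.0259), and it was 1.11 without aged bleo 4. Exons of S100a4 overlap Gm42674 on the same strand, so reads could have been left out or split between both genes.

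Some macrophage genes were higher in aged bleo, as S100a4 was. The summed level of 8 macrophage genes (Emr1, Cd68, Lyz2, Mrc1, Marco, C1qa, C1qb, and Csf1r) was 141 to 264 CPM in aged sham and 445 to 1503 CPM in aged bleo, with no overlap. Of these 8 genes, 4 were called higher (Emr1, Cd68, Lyz2, and Mrc1), and none of the 8 was at 0 in every library. Aged bleo 4 and 5 had the highest macrophage sums, 1503 and 861 CPM, as they had the highest S100a4. The part of macrophage RNA in the S100a4 difference was not tested. The 6 general leukocyte genes summed to 99.6 to 376 CPM in aged sham and 105 to 577 CPM in aged bleo, with 1 of 6 called higher (Laptm5). The 6 neutrophil genes summed to 152 to 936 CPM in aged sham and 83.1 to 840 CPM in aged bleo, with none called by edgeR, DESeq2, or limma and 0 at an unadjusted edgeR p under 0.05. Without aged bleo 4, S100a4 and 4 of 8 macrophage genes were still called higher, whereas 5 of 6 neutrophil and 2 of 6 general leukocyte genes were called lower and none of the latter higher.

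For Thy1, Pdpn, Cdh11, and Cdh2, genes of other cells that express them were also counted. The 6 T cell genes, which mark cells that carry Thy1 in mice, summed to 5.67 to 10.9 CPM in aged sham and 3.81 to 52.4 CPM in aged bleo, with 1 of 6 called higher (Il7r). The highest T cell sum was in aged bleo 4, where Thy1 was lowest. The 6 AT1 cell genes, of cells that carry Pdpn, summed to 17.2 to 66.9 CPM in aged sham and 10.0 to 16.1 CPM in aged bleo. Of these, 5 of 6 were called lower (Ager, Hopx, Rtkn2, Cldn18, and Akap5), while Pdpn lay at 63.5 CPM or more in each library. Lymphatic endothelial genes (0 of 5 called, 5.63 to 12.1 CPM) and mesothelial genes (0 of 7 called, 29.8 to 132 CPM), whose cells can also express Pdpn or Cdh2, overlapped between the groups. At an unadjusted edgeR p under 0.05, 0 of the 5 lymphatic endothelial and 0 of the 7 mesothelial genes differed, DESeq2 called 1 gene of each list, and limma 1 lymphatic endothelial gene. The part of these cells in the marker levels was not tested. The smooth muscle and pericyte genes summed to 1558 to 3112 CPM in aged sham and 963 to 2033 CPM in aged bleo, with 1 of 8 called higher and 2 lower. The 5 tested of 6 endothelial genes (1 higher, 1 lower), 6 epithelial genes (1 higher), and 5 Schwann cell genes (1 higher, S100b) had summed levels of at most 193, 78.6, and 14.8 CPM in any library. Tek, the endothelial gene called lower, made up most of the endothelial sum in aged sham, at 149 to 179 CPM.

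The 5 markers that rose ranked the aged bleo libraries in a similar way. Aged bleo 2 was the lowest of the 5 libraries for all 5 of them. Aged bleo 5 was among the top 2 for all 5, and aged bleo 4 for 4 of 5, the exception being Cdh11. On the log2 scale, the distance of aged bleo 2 from the aged sham mean was 2.73 for Cthrc1 and 0.26 for S100a4, against 4.46 and 2.38 in aged bleo 4. Cdh11 varied little, from 1.74 in aged bleo 2 to 2.10 in aged bleo 5. The 5 libraries share the same gate and protocol, and a spread of this kind was also present along the first principal component of all genes. The library names end in 5 for aged bleo 1 to 3, in 4 for aged bleo 4 and all aged sham libraries, and in 6 for aged bleo 5. The endings, whose meaning is not stated, therefore separate aged bleo 4 and 5 from the other 3, and 4 of 5 aged bleo libraries differ in ending from every aged sham library. The part of what the endings stand for in these differences was not tested beyond the comparison of aged bleo 4 with aged sham.

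**Figure D3:**
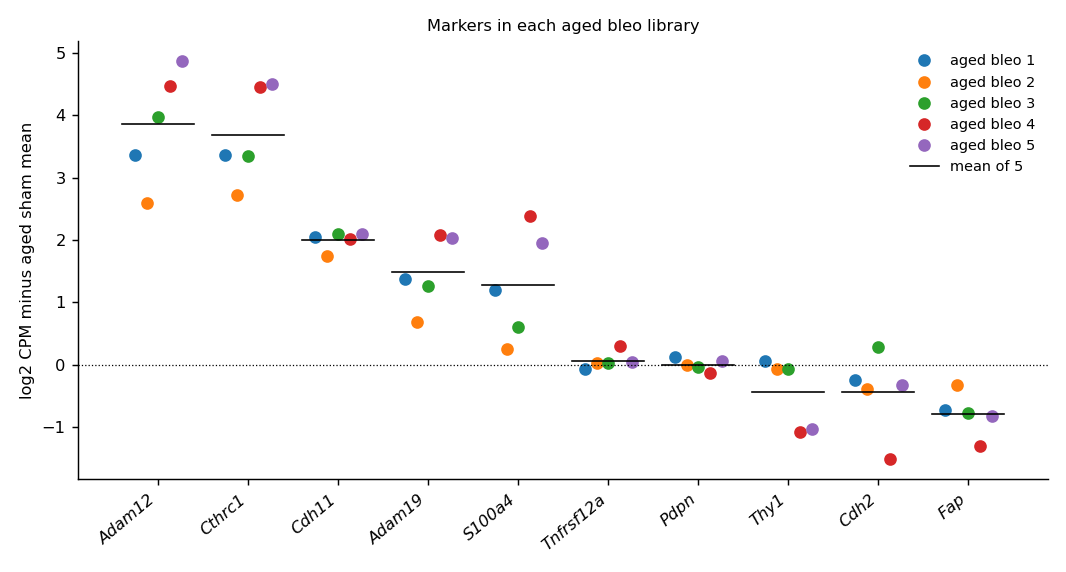
Log2 CPM of each marker in the 5 aged bleo libraries minus the mean of the 4 aged sham libraries, with a line for the mean of the 5. Aged bleo 2 (orange) is lowest for each of the 5 markers that rose, and aged bleo 4 and 5 (red and purple) lie lowest for Thy1.

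Levels of different genes were compared as FPKM, which divides by gene length. In aged sham, Tnfrsf12a was the most abundant of the 10 markers at 29.2 ± 4.67 FPKM (SD, n = 4), above Thy1 at 18.2 ± 3.66 FPKM in every library. Thy1, S100a4 (17.6 FPKM), Pdpn (16.7 FPKM), and Cdh11 (16.3 FPKM) followed with overlapping ranges, so their order is not beyond the spread. Cthrc1 (4.17 FPKM) and Adam19 (4.09 FPKM) also overlapped each other and lay below Cdh11 in each library, with Fap next at 2.51 FPKM. Adam12 (0.337 FPKM) and Cdh2 (0.200 FPKM) were the lowest and overlapped.

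After bleomycin the order was different. Cdh11 and Cthrc1 were now the most abundant at 66.3 ± 7.14 and 62.0 ± 33.5 FPKM (SD, n = 5), followed by S100a4 at 50.5 ± 31.7 FPKM. The ranges of these 3 overlapped, although Cthrc1 was above S100a4 in 5 of 5 libraries. Tnfrsf12a had a mean of 31.1 FPKM, within the range of S100a4, which was above it in 3 of 5 libraries. It was above Pdpn (17.1 FPKM) in all 5 libraries. Pdpn and Thy1 (14.3 FPKM) overlapped, with Pdpn above in 2 of 5 libraries, and Thy1 and Adam19 (12.6 FPKM) overlapped as well. Adam12 rose to 3.49 FPKM and passed Fap (1.49 FPKM) in 4 of 5 libraries, whereas Cdh2 stayed at the bottom with 0.153 FPKM.

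**Figure D4:**
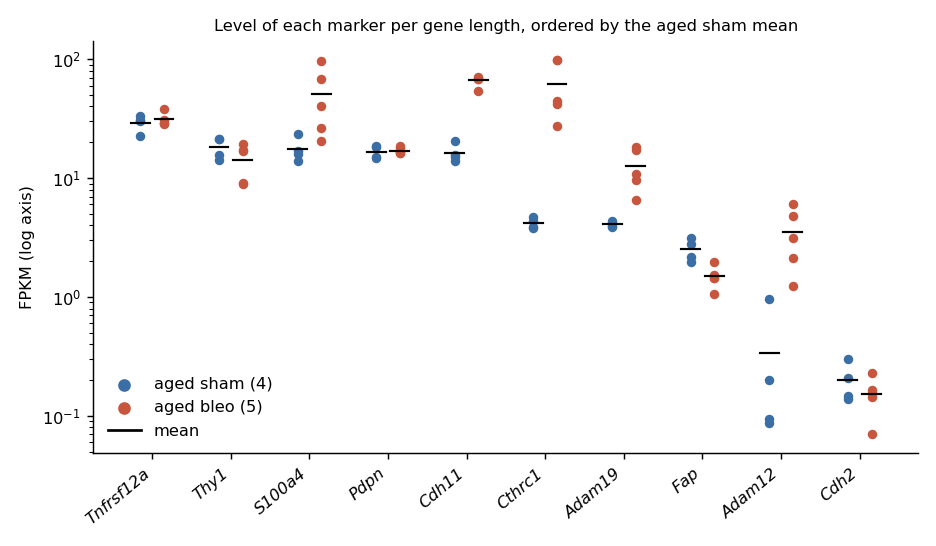
FPKM of the 10 markers on a log axis, ordered from left to right by the aged sham mean, with 1 point per library and a line for the mean. Tnfrsf12a leads in aged sham at 29.2 FPKM, and Cdh11 and Cthrc1 lead in aged bleo at 66.3 and 62.0 FPKM.

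The genes around the markers were grouped by family and pathway. Of 14 other genes described with the Cthrc1-expressing fibroblast population, 13 rose and none fell (0 also by DESeq2, by limma, and at an unadjusted edgeR p under 0.05), with a median log2 fold change of 3.00. Examples are Lrrc15 (8.75), a membrane protein of collagen-rich fibroblasts, Spp1 (7.93), which encodes osteopontin, Grem1 (7.65), a BMP antagonist, and Postn (2.32), a matricellular protein. Lrrc15 had 6, 6, 4, and 3 counts in aged sham, so the size of its fold change rests on few reads. Its mean in aged bleo was 37.8 CPM. Sfrp1, a secreted WNT inhibitor, was the gene that stayed under the fold threshold (log2 fold change 0.51, FDR 0.0293). This list holds Col1a1, the gene of the reporter, and the study itself names several of its genes, so it is not independent of the markers.

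The 5 tested genes outside the markers whose log2 CPM followed Cthrc1 most closely over the 9 libraries were Slc20a1 (Pearson r = 0.997), Chn1 (0.996), Wisp1 (0.996), Chn1os1 (0.995), and Bmper (0.994). Slc20a1 encodes a phosphate transporter, Chn1 a Rac GTPase-activating protein, Wisp1 a matricellular protein of the CCN family, and Bmper a secreted BMP-binding protein. Chn1os1 is named as an opposite-strand transcript of Chn1, and without a stated strand setting their reads may not be separate. Among the other markers, r with Cthrc1 was 0.976 for Adam19, 0.961 for Cdh11, 0.896 for Adam12, 0.853 for S100a4, -0.874 for Fap, and -0.640 for Thy1. These values describe 9 libraries that form separate clusters by treatment, so they include the difference between the groups and carry no test.

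Relatives of the membrane proteases moved in both directions. Of 11 other membrane ADAM genes, 9 were tested, of which 1 rose and 3 fell, with a median log2 fold change of -0.39. Adam10, a sheddase of Notch and cadherins, rose (0.74, FDR 0.00230). Adam22 (-2.11, FDR 0.00172) and Adam23 (-0.90, FDR 0.0103), which lack protease activity, and Adam33 (-1.86, FDR 0.00745), a gene of airway mesenchyme, fell. Of 8 other S9 prolyl peptidase genes, 7 were tested, with a median of 0.16. Dpp4, the closest relative of Fap, fell like Fap (log2 fold change -2.53, SE 0.41, 95% interval -3.45 to -1.60, FDR 0.00230). It went from 117 ± 7.68 CPM (SD, n = 4) to 20.3 ± 11.3 CPM (SD, n = 5) with no overlap between the groups. Dpp6 rose from 0.382 to 0.876 CPM (1.18, FDR 0.0315), and the other 5 did not pass the test.

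Of 17 other cadherin genes, 11 were tested, of which 2 rose and 3 fell, with a median log2 fold change of -0.06. Cdh24 rose (1.70, FDR 0.00338), and Cdh4 (-1.49, FDR 0.0239), Cdh9 (-1.78, FDR 0.0206), and Cdh13 (-1.01, FDR 0.0710) fell. The other gene that rose, Cdh15 (M-cadherin of muscle precursors), had 2, 0, 0, and 0 counts in aged sham and 72, 43, 61, 122, and 49 counts in aged bleo, so it stayed low in both groups. Cdh1, the epithelial cadherin, did not pass (1.30, FDR 0.129). None of the 4 catenin genes, whose proteins bind cadherin tails, was called by edgeR at these thresholds, nor by DESeq2 or limma, although 2 of them had an unadjusted p under 0.05. The largest catenin difference was that of Ctnnb1, at 0.26 (FDR 0.0394).

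Tnfrsf12a signals through TRAF adaptors to the NF-kB pathway, and the genes of this pathway were counted next. Of 10 genes, none was called higher (0 also by DESeq2 and limma, and 1 at an unadjusted edgeR p under 0.05) and 2 were called lower, with a median log2 fold change of -0.10. The genes that fell were Traf5 (-0.65, FDR 0.00260), an adaptor of TNF receptors, and Birc3 (-0.80, FDR 0.00909), an NF-kB target that restrains cell death. Tnfsf12, the TWEAK ligand, had a log2 fold change of -0.57 (FDR 0.0283), under the fold threshold, and its groups did not overlap. Of 27 other TNF receptor genes, 23 were tested, of which 7 rose and none fell (0 also by DESeq2 and limma, and 1 at an unadjusted edgeR p under 0.05). Without aged bleo 4, however, 2 of the other TNF receptor genes were called lower. The receptors that rose were Tnfrsf9 (3.76), Tnfrsf21 (2.66), Tnfrsf23 (2.00), Tnfrsf19 (1.96), Tnfrsf26 (1.85), Tnfrsf25 (0.86), and Tnfrsf10b (0.72). Of these, Tnfrsf19 was the most abundant in CPM, at 29.2 ± 9.25 (SD, n = 4) in aged sham and 114 ± 17.2 (SD, n = 5) in aged bleo. Tnfrsf9 was low in both groups, with 7, 12, 7, and 3 counts in aged sham and a mean of 1.77 CPM in aged bleo. Its highest count was 325, in aged bleo 4.

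S100a4 belongs to a family of small calcium-binding proteins. Of 15 other S100 genes, 10 were tested, of which S100b rose (3.35) from 0.718 to 7.37 CPM and S100a7a (-1.77) and S100a10 (-0.79) fell. The median log2 fold change of the S100 list was -0.36. S100a6, a neighbor of S100a4 and an abundant fibroblast gene, did not pass the test (-0.25, FDR 0.275). S100a8 and S100a9 are neutrophil genes, and they too did not pass (-0.37 and -0.62). S100a8 was 114 CPM in aged bleo 4 and 10.9 to 16.2 CPM in the other 4 libraries, against 14.1 to 97.1 CPM in aged sham. S100a9 was 359 CPM in aged bleo 4 and 28.1 to 44.6 CPM in the other 4, against 47.1 to 349 CPM in aged sham. Without aged bleo 4, the number of other S100 genes called lower went from 2 to 4.

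Among the genes listed as partners of the surface glycoproteins, in binding or in signaling, 1 of 7 tested podoplanin partners rose and 1 fell. Cd44, the hyaluronan receptor that binds podoplanin, rose from 171 to 369 CPM (log2 fold change 1.11, FDR 0.00319), and Cd9 fell (-0.62, FDR 0.00408). The median of the podoplanin partners was 0.03. Of 12 Thy-1 partners, 3 rose and 2 fell, with a median of 0.44. The integrin genes Itgb1 (0.85) and Itga5 (0.61) and the kinase gene Src (0.63) rose. Fyn, another Src family kinase, fell from 208 to 77.5 CPM (-1.43, FDR 0.00109), and Itgb3 fell as well (-0.61).

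**Figure D5:**
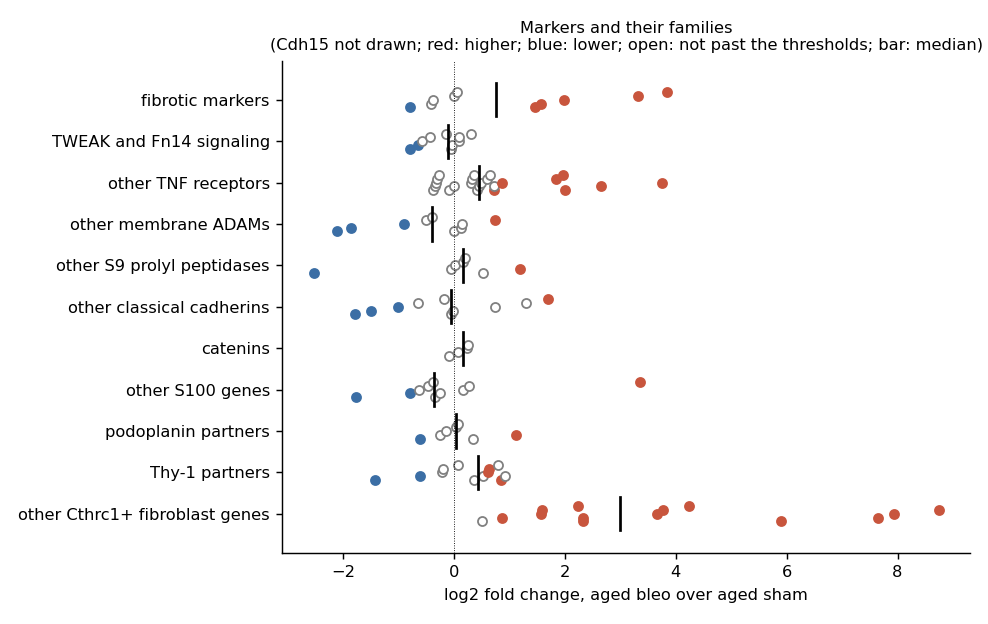
Log2 fold change, aged bleo over aged sham, of the 10 fibrotic markers and of the tested genes of 10 related lists, each with a bar at its median; Cdh15 is left out of the drawing because aged sham held 2 counts of it. The 14 other genes of the Cthrc1-expressing population have their median at 3.00, and the TWEAK and Fn14 genes at -0.10.

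Promoter sequence was available in the RefSeq table used (GRCm38.p6) for 4 of the 10 markers: Adam19 and S100a4, which rose, and Pdpn and Tnfrsf12a, which did not pass the test. The 250 bases before each start are shown to set these pairs side by side, 5′ to 3′ on the gene's strand. The regions are chr11:46055734-46055983 (plus strand) for Adam19, chr3:90603520-90603769 (plus) for S100a4, chr4:143299565-143299814 (minus) for Pdpn, and chr17:23677450-23677699 (minus) for Tnfrsf12a. Adam19 has 3 starts in that table, and the one nearest to the deposited gene start was taken. Capitals mark matches on either strand to the AP-1 motif TGANTCA, the TEAD motif GGAATG, the NFAT core GGAAAA, the TATA box TATAAA, and the GC box GGGCGG.
Adam19: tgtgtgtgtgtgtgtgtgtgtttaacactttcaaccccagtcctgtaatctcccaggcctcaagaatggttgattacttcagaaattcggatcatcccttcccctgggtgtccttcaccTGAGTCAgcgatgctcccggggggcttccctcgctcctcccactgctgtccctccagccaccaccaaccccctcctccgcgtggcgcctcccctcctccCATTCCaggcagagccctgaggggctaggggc
S100a4: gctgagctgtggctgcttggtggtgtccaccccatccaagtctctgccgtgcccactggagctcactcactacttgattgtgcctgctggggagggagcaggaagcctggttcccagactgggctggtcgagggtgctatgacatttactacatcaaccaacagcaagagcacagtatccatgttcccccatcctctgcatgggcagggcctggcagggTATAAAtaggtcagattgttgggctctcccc
Pdpn: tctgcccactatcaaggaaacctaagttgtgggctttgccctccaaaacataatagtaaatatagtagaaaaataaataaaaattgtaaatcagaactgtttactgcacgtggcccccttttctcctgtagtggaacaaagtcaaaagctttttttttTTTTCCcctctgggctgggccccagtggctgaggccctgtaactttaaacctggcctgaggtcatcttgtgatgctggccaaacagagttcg
Tnfrsf12a: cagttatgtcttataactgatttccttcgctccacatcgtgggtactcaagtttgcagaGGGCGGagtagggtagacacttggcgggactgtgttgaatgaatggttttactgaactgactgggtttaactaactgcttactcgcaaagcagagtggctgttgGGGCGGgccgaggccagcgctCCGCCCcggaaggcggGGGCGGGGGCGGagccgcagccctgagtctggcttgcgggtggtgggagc
Adam19 holds an AP-1 match at -131 to -125 and a TEAD match at -32 to -27, counted from -1 as the last base before the start. AP-1 matches occur in 6.75% and TEAD matches in 12.6% of the 32851 promoter windows of the same length. S100a4 holds a TATA box at -31 to -26 (12.4% of windows). Pdpn holds an NFAT core match at -92 to -87 (20.4% of windows). Tnfrsf12a holds 5 GC boxes (at least 1 in 32.7% of windows). The GC content was 60.0% for Adam19, 57.2% for S100a4, 43.2% for Pdpn, and 58.8% for Tnfrsf12a, against a median of 52.4%. These matches describe letters in a window, and both pairs are too few to compare.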

How the data were processed

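Bulk RNA-Seq libraries of sorted Col1a1-GFP lung fibroblasts from aged sham (n = 4) and aged bleo (n = 5) mice were analyzed. Libraries were made with a poly-A kit (TruSeq v2). Per the submitters' processing notes, bcl2fastq, STAR 2.5.2b, and featureCounts of Subread were used with mm10 (GRCm38); strand settings are not given in the sources used here. The authors deposited whole-number read counts per gene, not normalized, and FPKM values, whose library total is 2.27 to 2.42 times the sum of the counts. No comparison columns of the authors were used. Libraries were grouped by their sample titles. The 16877 genes whose mean count reached 25 entered edgeR's quasi-likelihood test (version 4.0.16, R 4.3.3) after TMM scaling, without covariates; a call required FDR < 0.10 together with more than 1.5-fold change, the thresholds of the study. CPM are TMM-normalized, with a prior count of 2 on the log2 scale. The study's moderated test was run as limma 3.58.1, and DESeq2 1.42.0, other normalizations, filters, thresholds, a replicate block, and leaving out each library were tried as well. On simulated counts for 16877 genes, edgeR recovered 76% of genes changed 2-fold and 94% of those changed 4-fold in a comparison of this size. Of its 185 calls, 15 were false. The simulated spread followed the trend over all genes, alike in both groups, so recovery of more variable genes can be lower. No 2 libraries of a group agreed within sampling noise. The 10 markers and the gene lists were chosen with earlier results of these data known; the text names the markers, genes of the lists, and the 5 genes nearest to Cthrc1 by Pearson r. Intervals cover the spread between libraries, and the counts limit precision only for genes of few reads.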

Additional observations from a re-analysis of the deposited data

Results flagged for a closer look

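In 44 sets of libraries (each marker and each cell-type list, in aged sham and in aged bleo), a single library was compared with the rest by the gap to its nearest neighbor over the whole range, and 9 stood apart; chance alone gives about 1 in 20. Among the markers, Adam12 in aged sham 1 was 19.0 CPM against 1.69 to 4.07 CPM in the other 3. Cdh11 in aged bleo 2 was 539 CPM against 656 to 693 CPM in the other 4. Tnfrsf12a in aged bleo 4 was 81.9 CPM against 62.9 to 68.1 CPM.

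Aged bleo 4 also stood apart in 4 list sums. Its general leukocyte genes summed to 577 CPM against 105 to 160 CPM in the other aged bleo libraries, its neutrophil genes to 840 CPM against 83.1 to 127 CPM, and its T cell genes to 52.4 CPM against 3.81 to 9.80 CPM. Its AT1 cell genes summed to 16.1 CPM against 10.0 to 11.7 CPM. In aged sham, the T cell sum of library 4 was 10.9 CPM against 5.67 to 6.12 CPM, and the epithelial sum of library 3 was 78.6 CPM against 8.30 to 14.7 CPM.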

How the results depend on the processing

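Cthrc1, Adam12, Adam19, Cdh11, and S100a4 kept their direction and their call in all 21 alternatives, with log2 fold changes of 3.44 to 4.47, 1.67 to 4.72, 1.33 to 2.09, 1.93 to 2.12, and 1.10 to 2.37. The number of markers called was 6, and it stayed 6 with each library left out. It was 5 with log2(FPKM + 1) and with stricter thresholds (FDR under 0.05, fold change over 2), where Fap was lost at -0.49 and -0.79. With the libraries whose names end in 4 only, which keeps aged bleo 4 as the lone aged bleo library and assumes that it varies like aged sham, 8 markers were called, with Thy1 at -1.09 (FDR 0.0326) and Cdh2 at -1.60 (FDR 0.0624). What the name endings stand for is not stated.

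Pdpn, near 0, changed sign with log2(FPKM + 0.1) (0.035), log2(FPKM + 1) (0.033), library size only (6.37e-04), and no filter (0.011), and ranged from -0.067 to 0.048 with each library left out. Tnfrsf12a ranged from -0.046 to 0.12 with each library left out, Adam12 from 3.00 to 4.72, and Fap from -0.92 to -0.66.

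Over all genes, 2082 were higher and 1940 lower. The counts were 960 and 825 with log2(FPKM + 1), 1224 and 934 with stricter thresholds, 3118 lower with names ending in 4, and 1876 to 2314 higher and 1639 to 2283 lower with each library left out. With a replicate block, 1822 genes were higher and 1714 lower, and the same 6 markers were called. Aged bleo 5 has no same-numbered aged sham library, so it adds nothing to the group difference in that fit. The deviations of same-numbered libraries from their group means correlated at 0.09, 0.06, -0.13, and 0.33. The last value was the highest of all pairs of an aged sham and an aged bleo library. These few values cannot decide whether the numbers pair the libraries. Counts within lists were small and moved under several settings. With log2(FPKM + 1), 3 in place of 7 other TNF receptor genes were higher, 1 in place of 3 membrane ADAM genes and 2 in place of 5 AT1 cell genes were lower, and none of the other cadherin genes was called, while Cdh11 was. The causes of these shifts were not tested.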
